A study of Mus musculus with 4 samples.

Results

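Microglia, the resident immune cells of the brain, were followed through 9 genes that they express: *Cx3cr1*, *P2ry12*, *Tmem119*, *C1qa*, *C1qb*, *C1qc*, *Csf1r*, *Trem2* and *Tyrobp*. The genes were chosen by name, and their entries were found by NCBI gene number among the 24532 genes that the authors' tables list. Each of the 9 genes had 1 entry in every library. Bulk RNA was sequenced from the granule-cell-enriched (GCE) part of the cerebellar vermis, cut by hand from brain slices, in 2 WT and 2 *Kdm3b*+/- animals, each giving its own library. All were adult males, and the WT mice were littermates of the *Kdm3b*+/- line. The *Kdm3b*+/- mice carried 1 allele of *Kdm3b*, which encodes a demethylase of lysine 9 on histone H3, interrupted by the gene-trap vector pGT0lxf. The line was derived from a single gene-trapped embryonic stem cell line and was crossed back to C57Bl/6N and C57Bl/6J mice. The allele was present in every cell of the mouse, and no microglia were sorted, so the values are those of the whole tissue piece.

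Microglia survey the tissue with receptors for signals of neurons and damaged cells. *Cx3cr1* encodes the receptor of the neuronal chemokine fractalkine, *P2ry12* an ADP receptor that guides their processes, and *Csf1r* the receptor tyrosine kinase on which their survival depends. *Trem2* encodes a surface receptor for lipids and lipoproteins, and *Tyrobp* encodes DAP12, the adaptor with a tyrosine-based activation motif through which TREM2 signals. *C1qa*, *C1qb* and *C1qc* encode the chains of C1q, which starts the classical complement cascade and tags synapses for removal. *Tmem119* encodes a membrane protein that sets microglia apart from other macrophages.

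The authors' tables place the C1q genes side by side on the reverse strand of chromosome 4, within 18.7 kb: *C1qb* (NCBI gene 12260) from 136880145 to 136886177, *C1qc* (12262) from 136889802 to 136892914 and *C1qa* (12259) from 136895916 to 136898844. *Trem2* (83433) lies on chromosome 17 from 48346401 to 48352276, and *Tyrobp* (22177) on chromosome 7 from 30413788 to 30417579. *Cx3cr1* (13051) lies on chromosome 9 from 120048683 to 120068296, *Tmem119* (231633) on chromosome 5 from 113793729 to 113800352, and *P2ry12* (70839) on chromosome 3 from 59216271 to 59262831. *P2ry12* lies inside *Med12l*, a gene of the opposite strand with a TPM between 3.37 and 4.57, and whether the reads were counted by strand is not given in the sources used here. The *Tyrobp* transcript has 5 exons and 564 bases in the GENCODE annotation of GRCm38.

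The promoters of *Trem2* and *C1qb* are shown because these genes stand for the pair and the trio described below. Each line gives the 250 bases before the transcription start, 5′ to 3′ on the strand of the gene, from RefSeq on GRCm38.p6. The *Trem2* window is chr17:48346151-48346400 on the forward strand, and the *C1qb* window is chr4:136886201-136886450 on the reverse strand. Capitals mark GAGGAA, the purine-rich core bound by PU.1, or its reverse complement TTCCTC.
Trem2: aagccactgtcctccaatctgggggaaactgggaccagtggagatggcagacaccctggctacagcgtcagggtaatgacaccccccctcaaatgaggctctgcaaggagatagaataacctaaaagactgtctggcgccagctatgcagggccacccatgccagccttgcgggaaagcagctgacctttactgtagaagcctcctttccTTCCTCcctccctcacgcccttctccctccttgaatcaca
C1qb: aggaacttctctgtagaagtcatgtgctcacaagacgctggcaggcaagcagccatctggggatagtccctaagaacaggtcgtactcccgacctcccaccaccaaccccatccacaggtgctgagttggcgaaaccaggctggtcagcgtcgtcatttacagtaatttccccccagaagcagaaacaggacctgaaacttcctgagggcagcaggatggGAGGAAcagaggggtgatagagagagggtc

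The match begins 40 bases before the start in *Trem2* and 30 bases before it in *C1qb*. Windows were matched for *P2ry12*, *C1qb*, *C1qc*, *Cx3cr1* and *Trem2*, and searched on both strands. The letters were found in 3 of these 5 windows, those of *C1qb*, *C1qc* and *Trem2*, and in 23.3% of all 32851 windows of this length. PU.1 is the product of *Spi1*, a transcription factor of the myeloid lineage, whose TPM was 5.48 and 6.98 in WT and 5.73 and 5.35 in *Kdm3b*+/-.

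The libraries held between 4.92 and 6.69 gigabases of aligned sequence, as given by dividing coverage by FPKM. Coverage, the mean depth per exonic base, was lowest among the members for *Cx3cr1*, with 14.0 to 27.7 reads, and highest for *C1qb*, with 219 to 325 reads. As a check of the labels, *Kdm3b* stood at 9.10 and 11.0 TPM in WT and at 8.30 and 7.90 in *Kdm3b*+/-. The groups did not overlap, but both *Kdm3b*+/- mice lay below both WT mice in 32.0% of the 13652 genes tested. The check therefore does not settle the labels. The trapped allele can still give reads upstream of the vector, and these count toward the TPM of *Kdm3b*. The paper reports less KDM3B protein in the vermis and flocculus of the mutants. The log2 fold change of *Kdm3b*, taken on log2(TPM + 1), was −0.27 (standard error 0.17, adjusted p = 0.424 from limma). With 2 mice against 2, an exact permutation test cannot give a two-sided p under 0.333.

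All 9 genes were detected in every library, and their summed TPM was 279 and 299 in WT and 302 and 318 in *Kdm3b*+/-. TPM is scaled to gene length and to 1000000 per library, so levels of different genes can be set side by side. The C1q chains stood highest, with a mean TPM over the 4 libraries of 103 for *C1qb*, 71.1 for *C1qc* and 30.7 for *C1qa*. Then came *Tyrobp* (20.9), *Tmem119* (17.9), *Csf1r* (16.3), *P2ry12* (16.3), *Trem2* (15.3) and *Cx3cr1* (7.88). For 4 of the 8 steps of this order, all libraries of the higher gene lay above all libraries of the lower gene: from *C1qb* to *C1qc*, from *C1qc* to *C1qa*, from *C1qa* to *Tyrobp*, and from *Trem2* to *Cx3cr1*. The neighbours from *Tyrobp* to *Trem2* overlapped, and their order is not resolved by these libraries.

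**Figure D1:**
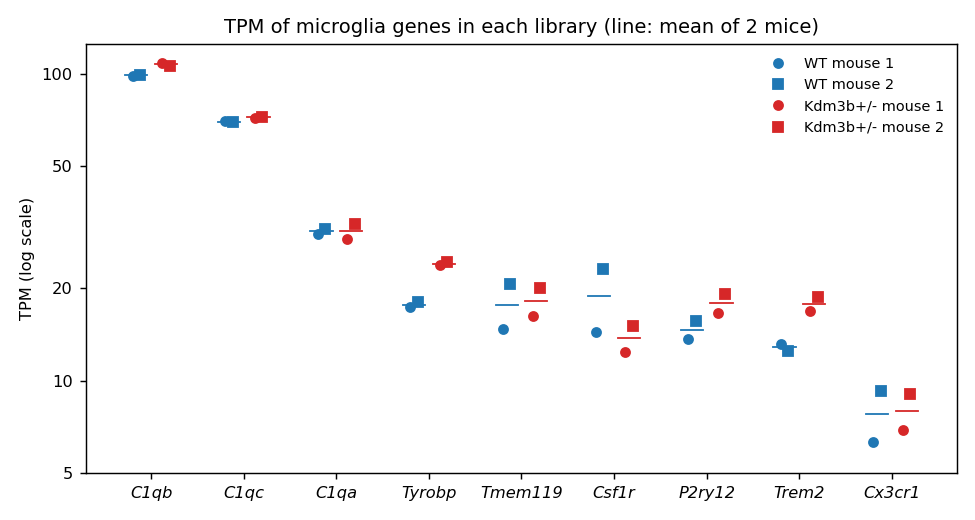
TPM, on a log scale, of each of the 9 microglia genes in the 4 libraries, with WT mice in blue, *Kdm3b*+/- mice in red and a line at the mean of each genotype (n = 2). *C1qb* runs from 98.7 to 109, and *Cx3cr1* from 6.32 to 9.26. The red and blue points are apart for *Tyrobp* and *Trem2*, and mixed for *Cx3cr1*, *Tmem119*, *C1qa* and *Csf1r*.

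The comparison of the genotypes asks whether these transcripts differ in the GCE tissue of mice with 1 trapped *Kdm3b* allele. None of the 9 genes was differentially expressed (DEX), which required an adjusted p under 0.05 from limma and a fold change over 1.2. Over all 13652 genes tested, 0.461% were DEX, 0.117% with higher and 0.344% with lower values in *Kdm3b*+/- mice. For 2 of the 9 genes, *Trem2* and *Tyrobp*, the unadjusted p was under 0.05, both higher in *Kdm3b*+/- mice, against 17.0% of all genes, 5.47% higher and 11.5% lower. The groups did not overlap for 5 of the 9 genes, in each of which the *Kdm3b*+/- mice lay above the WT mice, against 19.2% of all genes in that direction and 51.3% in either direction. The 9 genes had a median log2 difference of 0.05, against −0.07 over all genes. The median of the 9 was 0.27 without WT mouse 2 and 0.19 without *Kdm3b*+/- mouse 1. The 95% intervals of the single differences were between 0.58 and 1.0 wide on the log2 scale, without adjustment for the number of genes tested. Changes of small size were not detectable in this design, and larger ones could also miss the adjusted threshold. *Homer3*, a Purkinje cell marker, had a log2 fold change of −1.08 with an adjusted p of 0.125 from limma. A gene that was not DEX may therefore still differ, and not only by a small amount. In bulk tissue, a change in the number of microglia and a change in RNA per cell cannot be told apart.

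**Figure D2:**
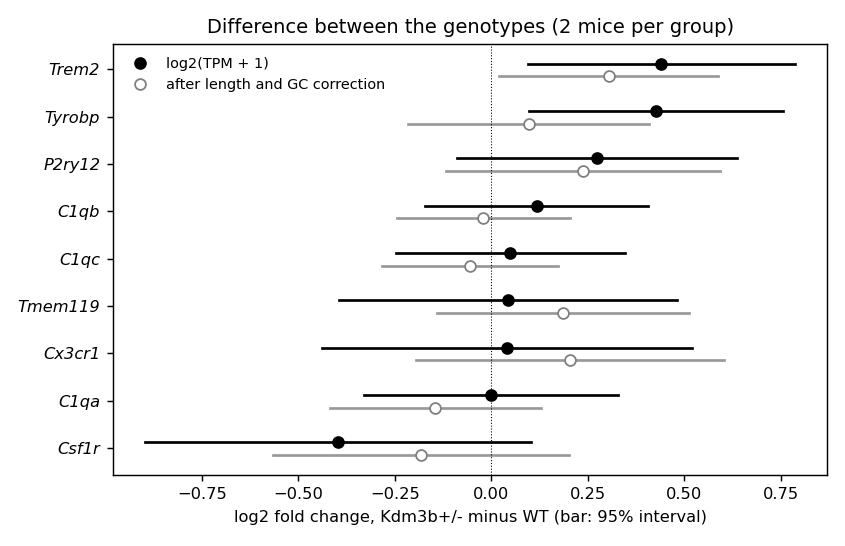
Log2 fold change of each gene, *Kdm3b*+/- minus WT, with its 95% interval from limma (2 mice per group), on log2(TPM + 1) in black and after the loess correction for length and GC in grey. The intervals of *Trem2* (0.09 to 0.79) and *Tyrobp* (0.10 to 0.75) lie above 0 in black, and that of *Tyrobp* spans 0 in grey.

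*Trem2* and *Tyrobp*, receptor and adaptor of the same complex, had the highest log2 fold changes of the 9 genes before the correction for length and GC content. After it *Trem2* was still highest, while *Tyrobp* (0.10) was below *P2ry12* (0.24), *Cx3cr1* (0.20) and *Tmem119* (0.18). *Trem2* stood at 13.2 and 12.5 TPM in WT (12.9 ± 0.478, mean ± SD, n = 2) and at 16.9 and 18.7 in *Kdm3b*+/- (17.8 ± 1.28, n = 2). Both *Kdm3b*+/- values lay above both WT values. The log2 fold change was 0.44 (standard error 0.15, 95% interval 0.09 to 0.79), a fold of 1.36, with an unadjusted p of 0.0181 and an adjusted p of 0.220 from limma. *Tyrobp* stood at 17.3 and 18.04 TPM in WT (17.7 ± 0.508, SD, n = 2) and at 23.8 and 24.4 in *Kdm3b*+/- (24.1 ± 0.430, SD, n = 2). These groups were also apart, with less than 1 TPM between the mice of either genotype. Its log2 fold change was 0.43 (standard error 0.15, 95% interval 0.10 to 0.75, adjusted p = 0.216), a fold of 1.34. Neither gene passed the adjusted threshold.

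The ratio of *Trem2* to *Tyrobp* TPM was 0.762 and 0.694 in WT and 0.712 and 0.768 in *Kdm3b*+/-, so the genotypes overlapped in the proportion of receptor to adaptor transcript. Set against *C1qa* in the same library, which removes the scaling of the library, *Trem2* stood at 0.438 and 0.402 in WT and at 0.586 and 0.577 in *Kdm3b*+/-. *Tyrobp* stood at 0.575 and 0.579 against 0.824 and 0.752. Both ratios were apart between the genotypes, but they use the same TPM values and are not separate support. The ratio of *Csf1r* to *C1qa* was apart in the other direction, with 0.480 and 0.744 in WT against 0.429 and 0.465 in *Kdm3b*+/-. Such ratios do not remove an effect of transcript length or GC content. The difference in *Tyrobp* moved with a correction for transcript length and GC content, after which its log2 fold change was 0.10 (95% interval −0.22 to 0.41, adjusted p = 0.768 from limma). For *Trem2*, with a transcript of 1088 bases, the corrected value was 0.30 (95% interval 0.02 to 0.59, adjusted p = 0.317).

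The C1q chains differed little between any of the libraries. *C1qb*, the most abundant of the 9 transcripts, stood at 98.7 and 99.2 TPM in WT (98.9 ± 0.361, SD, n = 2) and at 109 and 106 in *Kdm3b*+/- (107 ± 1.79, SD, n = 2). *C1qc* had 70.2 and 69.5 in WT and 72.1 and 72.5 in *Kdm3b*+/-. In both genes the *Kdm3b*+/- values lay just above the WT values. *C1qa* had 30.1 and 31.2 in WT and 28.9 and 32.5 in *Kdm3b*+/-, so its WT values fell between those of the *Kdm3b*+/- mice. The log2 fold changes were 0.12 for *C1qb* (95% interval −0.17 to 0.41, adjusted p = 0.663), 0.05 for *C1qc* (−0.25 to 0.35, adjusted p = 0.876) and −0.0012 for *C1qa* (−0.33 to 0.33, adjusted p = 0.997). The sign was positive for *C1qa* under FPKM, median-ratio scaling and quantile normalization, and negative for *C1qb* and *C1qc* after the length and GC correction.

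C1q is assembled from equal numbers of its chains, and the proportion of their transcripts varied within a narrow range. The ratio of *C1qb* to *C1qc* TPM was 1.41 and 1.43 in WT and 1.51 and 1.46 in *Kdm3b*+/-. The ratio of *C1qc* to *C1qa* was 2.33 and 2.23 against 2.50 and 2.23, and that of *C1qb* to *C1qa* was 3.28 and 3.18 against 3.76 and 3.27. The *C1qb* to *C1qc* ratio was apart between the genotypes by less than 0.1, while the *C1qc* to *C1qa* ratio overlapped and was highest in *Kdm3b*+/- mouse 1.

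*P2ry12*, the ADP receptor, stood at 13.6 and 15.6 TPM in WT (14.6 ± 1.41, SD, n = 2) and at 16.6 and 19.2 in *Kdm3b*+/- (17.9 ± 1.81, SD, n = 2). The groups did not overlap, but the gap between them was smaller than that between the mice of either genotype. Its log2 difference was 0.27 (standard error 0.16, 95% interval −0.09 to 0.64, adjusted p = 0.410). *Cx3cr1* stood at 6.32 and 9.26 TPM in WT and at 6.89 and 9.06 in *Kdm3b*+/-, and *Tmem119* had 14.8 and 20.6 against 16.2 and 20.04. In both genes the *Kdm3b*+/- mice lay between the WT mice. Their log2 fold changes were 0.04 (95% interval −0.44 to 0.52, adjusted p = 0.940) and 0.04 (−0.39 to 0.48, adjusted p = 0.926). Without WT mouse 1 they were −0.20 and −0.19, and without WT mouse 2 they were 0.28 and 0.27. Without *Kdm3b*+/- mouse 2 they were −0.14 and −0.10, so the sign changed with the library left out.

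*Csf1r* (NCBI gene 12978) lies on chromosome 18 from 61105572 to 61131139, 26.3 Mb from *Kdm3b* on the same chromosome, and its GENCODE transcript has 22 exons and 3870 bases. It had a mean TPM of 18.8 ± 6.19 (SD, n = 2) in WT and of 13.7 ± 1.90 (SD, n = 2) in *Kdm3b*+/-. Its values were 14.4 and 23.2 in WT and 12.4 and 15.1 in *Kdm3b*+/-, and WT mouse 1 fell between the *Kdm3b*+/- mice. Its log2 difference was −0.40 (standard error 0.22, 95% interval −0.90 to 0.10, adjusted p = 0.385). It was −0.72 without WT mouse 1 and −0.07 without WT mouse 2, and −0.18 after the length and GC correction. *Csf1r* was thus the gene of the 9 with the widest interval and the largest difference between the WT mice.

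For *Cx3cr1*, *Tmem119*, *C1qa* and *Csf1r*, a difference between mice of the same genotype was larger than the difference between the genotypes. This held for 4 of the 9 genes and for 64.0% of all genes tested. On the log2(TPM + 1) scale, WT mouse 2 exceeded WT mouse 1 by 0.65 in *Csf1r*, 0.49 in *Cx3cr1* and 0.46 in *Tmem119*, and *Kdm3b*+/- mouse 2 exceeded *Kdm3b*+/- mouse 1 by 0.26, 0.35 and 0.29 in these genes. In *C1qb*, *C1qc* and *Tyrobp* the mice of a genotype differed by at most 0.06. The members therefore did not all move alike from mouse to mouse. Over the 36 pairs of members, the centred profiles of *Cx3cr1* and *Tmem119* were nearest to each other (root mean square distance 0.0243 on the log2 scale), followed by *C1qb* and *C1qc* (0.0379) and by *Trem2* and *Tyrobp* (0.0582). The pair farthest apart was *Csf1r* and *Trem2* (0.492). These distances describe 4 libraries and carry no test.

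**Figure D3:**
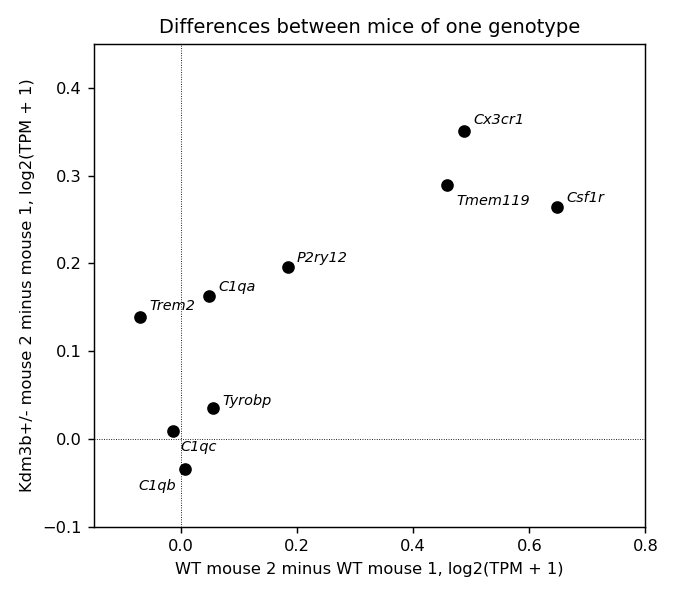
Difference between the mice of one genotype on the log2(TPM + 1) scale for each of the 9 genes, with WT mouse 2 minus WT mouse 1 on the horizontal axis and *Kdm3b*+/- mouse 2 minus *Kdm3b*+/- mouse 1 on the vertical axis. *Cx3cr1*, *Tmem119* and *Csf1r* lie at the upper right, with 0.46 to 0.65 between the WT mice, and the C1q genes, *Trem2* and *Tyrobp* differ by at most 0.07 between the WT mice.

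The mice numbered 2 also had the deeper libraries, with 5.74 against 4.92 gigabases in WT and 6.69 against 5.69 in *Kdm3b*+/-. Of all genes tested, 37.0% were higher in mouse 2 of both genotypes, and 6 of the 9 members were. The summed TPM of 10 Purkinje cell markers, which the dissection of GCE tissue is meant to leave behind, was 1894 in WT mouse 1 and 774 in WT mouse 2, and 1052 and 864 in *Kdm3b*+/-. The part of depth and of Purkinje cell RNA in the spread of *Cx3cr1*, *Tmem119* and *Csf1r* was not tested.

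A list of 25 other microglia genes was examined in the same fit, and all 25 passed the minimum mean TPM of 1. None was DEX by limma, and 2 had an unadjusted p under 0.05, both with higher values in *Kdm3b*+/- mice. Of all genes, 5.47% were higher at this threshold and 17.0% differed in either direction. Their median log2 fold change was 0.03, with 14 genes above 0 and 11 below. The groups did not overlap for 7 of the 25 genes, 4 higher and 3 lower, against 19.2% and 32.0% of all genes in these directions. *Aif1*, which encodes the calcium-binding protein IBA1 used to stain microglia, stood at 6.16 and 4.77 TPM in WT and at 8.33 and 8.72 in *Kdm3b*+/-. Its log2 fold change of 0.57 (95% interval 0.17 to 0.97, adjusted p = 0.189) was the highest of the list, and it was 0.33 (0.01 to 0.66) after the length and GC correction. *Rgs10*, a regulator of G protein signaling, had 23.0 and 17.8 against 25.2 and 28.3 (log2 fold change 0.38, adjusted p = 0.294), and its corrected value was 0.15 (95% interval −0.16 to 0.45).

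Some genes of resting microglia overlapped between the genotypes. *P2ry13*, another ADP receptor, stood at 5.31 and 5.07 TPM in WT and at 4.44 and 6.0003 in *Kdm3b*+/-, and *Siglech*, a sialic acid-binding lectin, had 6.66 and 5.80 against 5.88 and 8.09. *Cd68*, a lysosomal protein of phagocytes, had 10.1 and 12.5 against 15.1 and 14.3, with a log2 fold change of 0.36 (95% interval −0.01 to 0.74, adjusted p = 0.307). At the other end, *Mertk*, a receptor for the uptake of dying cells that astrocytes also express, had 6.98 and 4.16 against 3.86 and 4.06 (log2 fold change −0.37, adjusted p = 0.419).

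Of the ligands and partners of the members, 5 of 10 genes passed the TPM minimum, and none was DEX by limma. *Cx3cl1*, which encodes fractalkine, the neuronal ligand of the receptor CX3CR1, stood at 43.9 and 56.9 TPM in WT and at 28.2 and 36.7 in *Kdm3b*+/-. The groups did not overlap, and the log2 fold change was −0.62 (95% interval −1.03 to −0.21, adjusted p = 0.175). It alone of the 5 tested genes had an unadjusted p under 0.05, against 17.0% of all genes. *Il34* and *Csf1*, the ligands of CSF1R, had log2 fold changes of −0.01 (adjusted p = 0.982) and −0.25 (adjusted p = 0.507). *Il34* had 12.7 and 13.6 against 12.3 and 13.8, and the groups overlapped. *Apoe* and *Clu*, which encode apolipoproteins that TREM2 binds, had TPM values from 5413 to 5957 and from 1349 to 1551. The C1r and C1s proteases that join C1q in the C1 complex stayed below a TPM of 1.2 in every library, with *C1rb* listed at 0 in all 4.

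For signaling below TYROBP and CSF1R, 8 of 12 genes passed the minimum and none was DEX by limma. Of the 8, 1 had an unadjusted p under 0.05, against 17.0% of all genes. *Syk*, the kinase that binds phosphorylated TYROBP, was below the minimum, with a TPM from 0.229 to 0.539. *Inpp5d*, the phosphatase SHIP1 that restrains this pathway, was also below it, with 1.07 and 1.08 against 0.459 and 0.550. The median of the 8 tested genes was −0.09.

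Of a list of 15 complement genes, with receptors, inhibitors and a C1q-binding protein, 11 were tested and none was DEX by limma. An unadjusted p under 0.05 was found for 3, all with lower values in *Kdm3b*+/- mice. Of all genes, 11.5% were lower at this threshold and 17.0% differed in either direction. *C4b*, the complement component cleaved by the C1 complex, stood at 4.21 and 3.88 TPM in WT and at 1.55 and 2.45 in *Kdm3b*+/- (log2 fold change −0.77, adjusted p = 0.154). *Serping1*, which encodes the inhibitor of C1, had 36.7 and 42.0 against 24.7 and 22.2 (log2 fold change −0.72, adjusted p = 0.103). *C5ar1*, the receptor of the fragment C5a, had 1.41 and 2.44 against 0.794 and 1.11 (log2 fold change −0.57, adjusted p = 0.266). Of the 11 genes, 4 had both *Kdm3b*+/- values below both values of WT and 1 had them above, against 32.0% and 19.2% of all genes. The fourth of the lower genes was *C3ar1*, a receptor of C3a (log2 fold change −0.13), and the higher was *C1qbp*, a mitochondrial protein that binds C1q (0.27). *C3*, the central component, was below the minimum, with a TPM of at most 0.4998. The median of the 11 genes was −0.10.

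Among genes that microglia raise on activation, 13 of 20 were tested and 1, *Cd63*, was DEX, against 0.461% of all genes. *Cd63* encodes a tetraspanin of late endosomes that many cell types express. Its TPM rose from 265 and 236 in WT to 421 and 451 in *Kdm3b*+/-, a log2 fold change of 0.80 (95% interval 0.52 to 1.08, adjusted p = 0.0360 from limma). After the length and GC correction the log2 fold change was 0.64 with an adjusted p of 0.0540, so the call was lost. The *Cd63* TPM was below the summed TPM of the 9 members in WT and above it in *Kdm3b*+/-. *Cd9*, a related tetraspanin also found in oligodendrocytes, had 125 and 130 against 184 and 207 (log2 fold change 0.61, adjusted p = 0.105). The groups did not overlap for 3 of the 13 genes with higher and 3 with lower values, against 19.2% and 32.0% of all genes. The median of the list was 0.07, or −0.02 after the length and GC correction. The levels in the list ranged widely. *Tnf* was listed at 0 in all 4 libraries and *Itgax* had a TPM of at most 0.128, while *Spp1*, which encodes osteopontin, stood at 196 and 74.2 TPM in WT and at 117 and 141 in *Kdm3b*+/-. *Axl*, a receptor tyrosine kinase for the uptake of dying cells, had 8.43 and 11.9 against 7.38 and 8.64. *Cst7*, an inhibitor of cathepsins, had 1.06 and 1.10 against 0.924 and 1.58 (log2 fold change 0.10, adjusted p = 0.842).

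**Figure D4:**
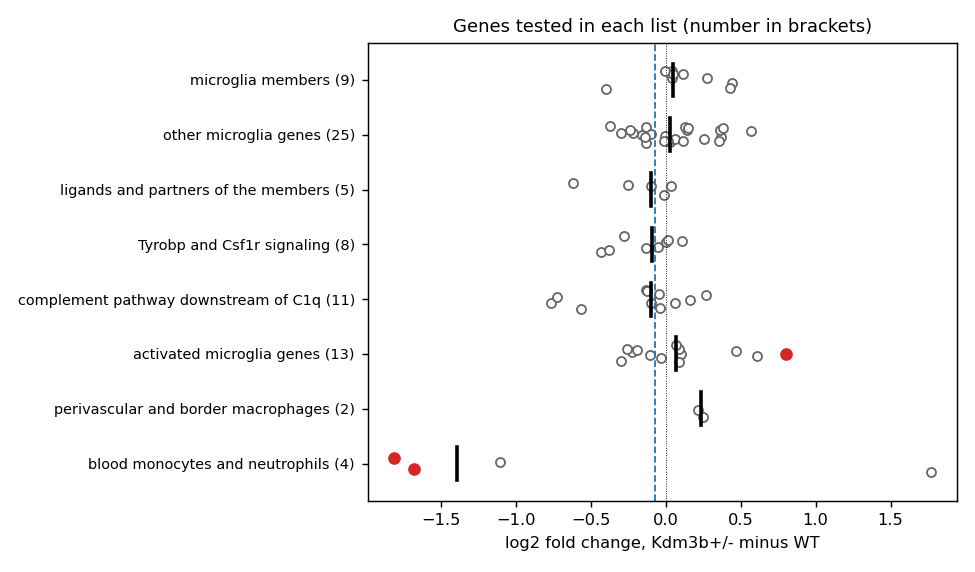
Log2 fold change, *Kdm3b*+/- minus WT, of every tested gene in the members' list and 7 lists of related genes, with DEX genes in filled red, the median of each list as a black bar and the median of all genes (−0.07) as a dashed blue line. The medians of the members (0.05) and of the other microglia genes (0.03) lie near 0, and the DEX genes shown are *Cd63*, *S100a8* and *S100a9*.

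Markers of border macrophages and lymphocytes were low. The 10 genes of perivascular and border macrophages summed to a TPM of 8.46 and 6.81 in WT and of 8.12 and 9.66 in *Kdm3b*+/-. *Mrc1*, *Lyve1* and *Cd163*, which define these cells, were at most 0.547, 0.157 and 0.639 in any library. *Cbr2* and *Pf4* of this list passed the TPM minimum. *Cbr2* had 2.33 and 1.57 in WT and 1.98 and 2.88 in *Kdm3b*+/-, and *Pf4* had 2.09 and 1.04 against 1.68 and 2.33. Lymphocyte markers summed to at most 4.04. The 10 genes of blood monocytes and neutrophils summed to 17.3 and 18.01 in WT and to 14.9 and 3.60 in *Kdm3b*+/-, and the highest values among them, 10.6 for *Ly6c2* in *Kdm3b*+/- mouse 1 and 7.82 for *S100a9* in WT mouse 1, were of the order of *Cx3cr1*. None of the members or of the other microglia genes had a mean TPM under 1.2, so microglia genes were present in this tissue as labelled.

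Markers of the other cells of the tissue were examined beside the microglia genes. The 10 granule cell markers had a median log2 fold change of 0.06 and a summed TPM of 4498 and 5420 in WT and of 4854 and 5147 in *Kdm3b*+/-. The 10 Purkinje cell markers had a median of −0.50, the 10 astrocyte and Bergmann glia markers of −0.31, the 9 oligodendrocyte markers of 0.02 and the 9 tested endothelial and pericyte markers of 0.09. Over these lists *Aqp4*, the water channel of astrocytes, was DEX and higher (59.2 and 82.3 against 150 and 152), and *Mobp*, a myelin protein, was DEX and lower (925 and 893 against 471 and 482). *Prelp*, a proteoglycan of meningeal fibroblasts, was DEX and lower as well, with 40.4 and 44.0 against 15.3 and 14.2. Genes of the same lists also went the opposite way, without being DEX. *Lum* of the fibroblast list had a log2 fold change of 0.95, *Opalin* of the oligodendrocyte list 0.69 and *Fgfr3* of the astrocyte list −0.89. Of the tested genes, 2 of 6 fibroblast, 5 of 9 oligodendrocyte and 3 of 10 astrocyte and Bergmann glia markers were higher by their means. The median was −0.10 for the 5 oligodendrocyte precursor markers, −0.31 for the 6 tested meningeal fibroblast markers, 0.41 for the 5 red blood cell genes and −0.62 for the 7 tested immediate early genes. Several of these medians rested on single libraries. That of the Purkinje cell markers was 0.11 without WT mouse 1 and −0.90 without WT mouse 2, and that of the immediate early genes −1.03 and −0.28. The red blood cell median was 0.14 without *Kdm3b*+/- mouse 1 and 0.10 after the length and GC correction, and the list holds *Hbb-bs*, a globin gene with near-identical copies, at 506 and 8.08 TPM against 0.00768 and 0.142. The part of these cell types in the microglia values was not tested.

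The mean centred profile of the 9 members over the 4 libraries was −0.16 and 0.05 in WT and −0.02 and 0.13 in *Kdm3b*+/-, on the log2 scale. The 5 genes outside the list with the most similar profile were *Srgap2*, *Wipf1*, *Actn3*, *Ptprn2* and *Bahcc1*, at a root mean square distance from 0.00714 to 0.0141. *Srgap2*, the nearest, stood at 19.6 and 22.4 TPM in WT and at 21.6 and 24.2 in *Kdm3b*+/-. The profile was common, since 1495 other genes lay within 0.1 of it. It was also a poor summary of some members, because 11597 other genes lay nearer to it than *Csf1r* did and 7341 lay nearer than *Trem2*.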

How the data were processed

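The authors trimmed low-quality bases, aligned reads with STAR and estimated gene abundance with StringTie; versions, strand setting and genome build are not given in the sources used here. They deposited 1 table per library. The deposited coverage values give mean depth per exonic base. The deposited FPKM values are divided by length and mapped fragments, and the deposited TPM values by length and then set to a sum of 1000000 in each library. Of the identifiers, 99.6% lay on the chromosome given by RefSeq for GRCm38, with 90.5% starting no more than 1 kb away. Symbols were found for 24462 of 24532 identifiers, and entries that share an identifier were summed.

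Groups came from the sample titles. log2(TPM + 1) was compared for 13652 genes, those averaging 1 TPM or more, by limma 3.58.1 (R 4.3.3, lmFit and trended eBayes), with genotype as the only term and Benjamini-Hochberg adjustment over all genes. A gene was DEX when its adjusted p was under 0.05 and its fold over 1.2. The study's count test was not used, because TPM values are not counts. A fold change on this scale understates the change of genes with low TPM. The labels do not say more of the mice than their numbers, and with 2 per group the p-values rest on a spread shared across genes.

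Length and GC content came from GENCODE transcripts of GRCm38 (12904 of the tested genes, 94.5%), taking the longest transcript linked to RefSeq, and each library's deviations were corrected by loess. statmod 1.5.0 served the robust fit, and Python 3.11.15 with NumPy 2.4.6, pandas 2.3.3 and Matplotlib 3.10.9 made the tables and figures. The fit was tested on simulated data.

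The named genes are the 9 members, *Kdm3b*, genes of the lists, and the 5 genes nearest to the members' mean profile. The members and lists were chosen with earlier results of these data known. The results of some genes of the lists are counted with their list and are not reported here by themselves. *Crry*, an older name of *Cr1l*, was counted once. The alternatives were a pseudocount of 0.1, FPKM, no filter, a minimum of 5 TPM, quantile normalization, median-ratio scaling, the highest entry per gene, robust and untrended eBayes, a replicate block, the length and GC correction alone or with the block, the adjusted p alone, and leaving out each library.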

Additional observations from a re-analysis of the deposited data

How the results depend on the processing

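None of the 9 microglia genes was DEX under any of the 16 alternatives, and the lowest adjusted p of any of them was 0.0967, for *Csf1r* without WT mouse 1. *Trem2* (0.30 to 0.56), *Tyrobp* (0.10 to 0.54), *P2ry12* (0.18 to 0.39) and *Csf1r* (−0.72 to −0.07) kept the sign of their log2 fold change under all 16. With each library left out in turn, the log2 fold change ran from −0.20 to 0.28 in *Cx3cr1*, from −0.19 to 0.27 in *Tmem119* and from −0.083 to 0.080 in *C1qa*. *C1qa* was at 0.060 with FPKM, 0.070 with median-ratio scaling and 0.11 with quantile normalization, and *C1qb* and *C1qc* were at −0.021 and −0.055 after the length and GC correction, with or without the block. The median of the 9 genes ran from 0.04 to 0.27 and that of the other 25 microglia genes from −0.08 to 0.16, both with a library left out. The cause of these changes was not tested.

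The number of DEX genes over the whole table, 63 (16 higher and 47 lower), was 38 with FPKM, 37 with eBayes without trend and 2 without the filter, and ran from 21 (without WT mouse 1) to 188 (without *Kdm3b*+/- mouse 2) with a library left out, where the lone mouse of a genotype is assumed to vary like the others. With median-ratio scaling it was 61, 23 higher and 38 lower. Same-numbered mice deviated together with a correlation of 0.121 across genes, and of 0.0212 after the length and GC correction, and the labels do not say that the numbers mark litters or days. With the replicate block 600 genes were DEX, and 218 with the correction as well, none of them a member, with adjusted p of 0.110 for *Trem2* and 0.105 for *Tyrobp* under the block alone. Of the genes in the other lists, 6 were DEX, against 22 with the block, 16 with the block and the correction, 0 without the filter (where the unadjusted p of 2248 genes was under 0.05), and 2 to 13 with a library left out. Depth limits most the genes of low TPM, such as *Syk* and the C1r and C1s genes, which were not tested.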

Other observations

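Outside the microglia, 3 of the 4 tested genes of blood monocytes and neutrophils were lower in *Kdm3b*+/- mice without overlap, against 32.0% of all genes. The other 6 genes of the list were below the TPM minimum, which was applied to the mean of all libraries. *Lcn2* passed it through its WT values, with a mean of 1.01, and *Ly6c2* through *Kdm3b*+/- mouse 1 alone. The count therefore depends in part on the filter. Of the 4 tested genes, 2 were DEX and lower, against 0.344% of all genes. The list was chosen with earlier results of these data known, so these counts are a description and not separate support. *S100a8* and *S100a9*, the subunits of the calcium-binding protein calprotectin, were both DEX. *S100a8* stood at 4.68 and 5.25 TPM in WT and at 0.973 and 0.757 in *Kdm3b*+/-, with a log2 difference of −1.68 (95% interval −2.10 to −1.25, adjusted p = 0.0116 from limma). *S100a9* had 7.82 and 6.64 against 1.82 and 0.945, with a log2 difference of −1.81 (95% interval −2.31 to −1.31, adjusted p = 0.0133). *Lcn2*, a granule protein that binds siderophores, had 1.87 and 1.61 against 0.358 and 0.190, with an adjusted p of 0.0641. *Camp* and *Ngp*, which were below the TPM minimum, had 1.46 and 1.61 against 0.190 and 0.287, and 0.624 and 1.64 against 0.122 and 0.0853. *Retnlg* had 0.771 and 0.806 in the WT mice and was listed at 0 in both *Kdm3b*+/- mice. *Plac8*, also below the minimum, went the other way, with 0 and 0.235 against 0.629 and 1.203, and *Ltf* overlapped, with at most 0.219.

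The monocyte gene *Ly6c2* was listed at 0 in 3 libraries and had a TPM of 10.6 in *Kdm3b*+/- mouse 1. It has a near-identical neighbour, *Ly6c1*, and how reads were divided between them is uncertain. *Ccr2*, the chemokine receptor of blood monocytes, was at most 0.187 in any library.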
